A study of Mus musculus with 3 samples.

Results

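Müller glia (MG) taken from light damaged (LD) mouse retinas were set against wild type MG, miRNA by miRNA, over all miRNAs whose mean count over both samples was at least 100. Of the 602 miRNAs on the NanoString panel, 104 met this cutoff, and they held 98.8% of the summed miRNA counts in wild type MG and 99.0% in LD MG. Both samples came from adult Rlbp1-CreER:tdTomato mice, in which tamoxifen activates a Cre that is driven by the promoter of the glial gene Rlbp1, so that MG carry the red reporter and can be sorted. Tamoxifen was given at 75 mg/kg to all mice as adults. The wild type sample was pooled from 40 undamaged retinas, and the LD sample from 44 retinas collected 7 days after 8 h of light at 10000 lux. A sample of Dicer-cKO MG, from 26 retinas of Rlbp1-CreER:tdTomato:Dicerf/f mice 1 month after deletion of Dicer, is given beside the LD values where it helps to place them. Only the mice for light damage had been crossed to albino Swiss Webster mice, which carry the leucine variant of RPE65 that makes the retina sensitive to light, and the wild type and Dicer-cKO samples had been measured for an earlier study. Light damage therefore cannot be told apart from strain or from the time of measurement. Each condition was 1 pool of several sorts. No spread between animals could be had and no test was run, and the interval given with a ratio (95%, exact by Clopper-Pearson) covers the error of counting alone. The error of the background that had been subtracted from the counts is left out of it. Unless another is named, every ratio is that of LD to wild type. In sorted pools, fewer cells of a kind and less RNA per cell cannot be told apart.

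MG span the retina, support its neurons and respond to damage. Mature miRNAs are short RNAs cut from hairpin precursors by Dicer, and they guide Argonaute proteins to mRNAs mainly through the seed, the bases near their 5′ end. miRNAs with the same seed form a family with largely shared targets. Of the families described here, let-7 and miR-125 act in developmental timing and differentiation, miR-9 and miR-124 in neural fate, miR-204 in the development of the eye and the retinal pigment epithelium, and miR-29 as a brake on collagens and other matrix genes.

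The table gave miRBase identifiers without names. Names were attached to 26 of the 104 miRNAs by the order of the bars in the study's own charts, and the other 78 are given by identifier. The names were not checked against a table of names, and the sequences, seed families and genome positions given here rest on them. The 21 names of lower miRNAs came from a chart of miRNAs that declined, in the order of their wild type counts. The 5 names of higher miRNAs came from a chart of miRNAs that increased, in the order of the same LD to wild type ratio that is given for them here. Whether a named miRNA was higher or lower was thus fixed by the chart its name came from, and these directions are a description only. The order of the 5 higher ones by ratio, and so of miR-29b over miR-29a, was fixed in the same way. A mature sequence was found for 21 of the 26 in the RefSeq table for GRCm38.p6. Where the charts name no arm of the hairpin, the unstarred arm was assumed. For miR-29a this is the 3p arm, whereas the study's text on another assay writes miR-29a-5p, so that the sequence of miR-29a and its place in a seed family with miR-29b rest on an arm that is not settled. These 21 carried 13 different seeds, and 4 of the seeds were shared by 12 miRNAs. The sequences of these 12, and of miR-204, the most abundant miRNA of wild type MG, are shown because the LD response is compared within each seed family. They are written 5′ to 3′ with the seed, bases 2 to 8, in capitals.
miR-204: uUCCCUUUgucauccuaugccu
miR-125b-5p: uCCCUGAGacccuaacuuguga
miR-125a-5p: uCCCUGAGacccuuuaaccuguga
miR-99a: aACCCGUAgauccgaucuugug
miR-100: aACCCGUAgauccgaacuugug
let-7a: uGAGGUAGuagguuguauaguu
let-7b: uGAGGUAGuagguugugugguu
let-7c: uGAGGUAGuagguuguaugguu
let-7d: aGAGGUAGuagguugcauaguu
let-7e: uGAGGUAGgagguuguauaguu
let-7g: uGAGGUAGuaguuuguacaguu
miR-29a: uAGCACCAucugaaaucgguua
miR-29b: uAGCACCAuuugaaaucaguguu

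Under the authors' scaling, most of the 104 miRNAs were lower in LD MG, while under 4 of 8 other scalings the median ratio was above 1, from 1.03 to 1.58. Of these 4, scaling to the median of ratios sets the median close to 1 by construction, so its value is not a result. At most 0.5-fold of the wild type count was left for 41 miRNAs (39.4%), and 20 (19.2%) were at least 2-fold higher. Of the 20, 10 had under 100 counts in wild type and entered through LD MG alone, so that 10 were left when at least 100 counts were asked of both samples, beside 31 at most 0.5-fold. Counting error alone was exceeded downwards by 61 miRNAs (58.7%) and upwards by 29 (27.9%), while 14 had an interval that included 1. The median ratio of LD to wild type was 0.613, or -0.71 on the log2 scale, and the quartiles were 0.370 and 1.26. The measured ratios ran from 0.101 to 82.7, a span of 816-fold. All these values follow the authors' scaling to 4 reference mRNAs, and the counts in each direction depend on it, as the comparison of scalings shows. Before this scaling, the summed miRNA counts were 678751 in wild type and 230245 in LD MG, and after it 783889 and 468576. The Dicer-cKO sample held 44290 before and 195642 after it, and its values were not compared under other scalings. Each sample has its own lowest value, at which 261 of the 602 miRNAs stood in wild type and 356 in LD MG, and 223 stood at it in both.

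**Figure D1:**
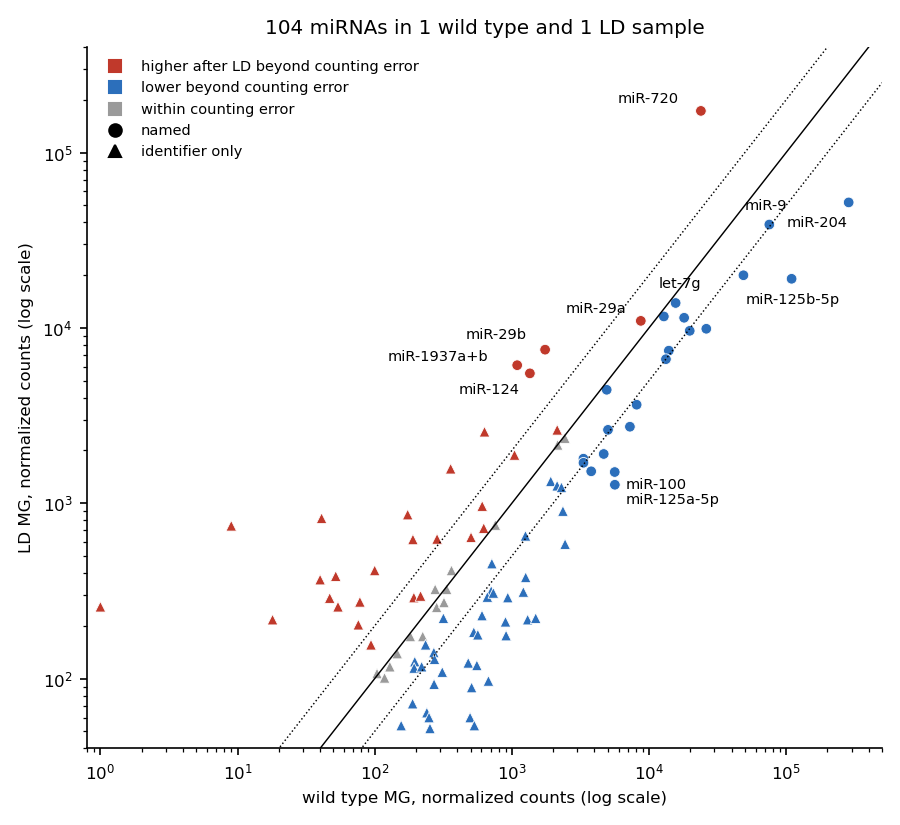
Normalized counts of the 104 miRNAs in wild type MG (x axis) and LD MG (y axis), both on log scales, with a solid line at equal counts and dotted lines at 2-fold and 0.5-fold. Red marks the 29 miRNAs higher and blue the 61 lower beyond counting error, and circles are the 26 with a name. miR-204 lies at 285706 against 51963 counts, and miR-720 at 23904 against 172827.

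Both directions occurred at every level of abundance. At a mean of 3000 or more, 18 of 23 miRNAs were lower and 5 higher beyond counting error, with a median ratio of 0.515. Between 1000 and 3000, 8 of 13 were lower and 3 higher, with a median ratio of 0.589. Of the 30 miRNAs with means from 300 to 1000, 18 were lower and 9 higher, and the median ratio was 0.444. The 38 miRNAs with means from 100 to 300 had a median ratio of 0.853, with 17 lower, 12 higher and 9 within counting error. Across the 104 miRNAs, the rank correlation of mean count with ratio was -0.136, which is a description over miRNAs of the same 2 samples that share library, depth and scaling. The cutoff itself fixes part of the picture at the low end: all 11 miRNAs with under 100 counts in wild type had to be higher in LD MG to be included, and all 10 with under 100 counts in LD MG had to be lower.

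The leading pair of wild type MG, miR-204 and miR-125b-5p, also stood among the 10 lowest ratios. miR-204 counted 285706 in wild type, 51963 in LD and 30438 in Dicer-cKO MG, giving a ratio of LD to wild type of 0.182 (95% interval 0.180 to 0.184). Its share of all miRNA counts was 36.4% in wild type and 11.1% in LD MG, and of the counts without miR-720 37.6% and 17.6%. miR-125b-5p, the next most abundant, counted 109596, 19063 and 18202 in the same order, a ratio of 0.174 (0.170 to 0.178). miR-9, an miRNA of neural progenitors, counted 75416, 38870 and 18100 and held rank 3 in both wild type and LD MG. miR-181a counted 48829, 19965 and 8300 and held rank 4 in both, with a ratio of 0.409 (0.400 to 0.418). These values place miR-204 and miR-125b-5p well under the median ratio of the 104 miRNAs, and miR-9, at 0.515 (0.507 to 0.524), near it.

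The most abundant miRNA of LD MG was miR-720, a sequence first annotated as an miRNA and later recognised as a fragment of a tRNA. It counted 23904 in wild type, 172827 in LD and 10983 in Dicer-cKO MG, which gives a ratio of LD to wild type of 7.23 (7.12 to 7.34). Its share was 3.05% in wild type and 36.9% in LD MG. Without miR-720 the summed counts were 759985 and 295749. Of the 10 highest miRNAs in wild type MG, 8 were also among the 10 highest in LD MG. miR-135a (rank 12 in wild type and 7 in LD MG) and miR-29a (rank 13 and 9) took the places of miR-99a (rank 7 and 11) and miR-30c (rank 10 and 13), and let-7c moved from rank 5 to rank 10. The top 10 held 81.3% of the counts in wild type and 76.9% in LD MG.

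**Figure D2:**
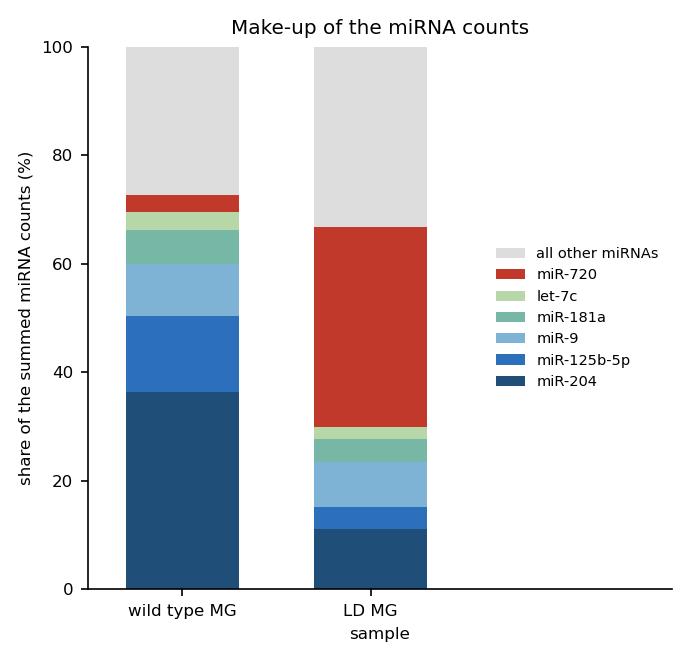
Share of the summed miRNA counts, in percent, held by 6 miRNAs and by all other miRNAs in the wild type and the LD sample. miR-204 took 36.4% of the bar in wild type and 11.1% in LD MG, and miR-720 took 3.05% in wild type and 36.9% in LD MG.

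Grouped by the study's own lists, the 7 miRNAs it calls mGliomiRs, which were enriched in MG over retinal neurons, held 65.4% of the wild type, 28.7% of the LD and 38.8% of the Dicer-cKO counts. All 7 were lower in LD MG beyond counting error under the authors' scaling and 4 were at most 0.5-fold, with a median ratio of 0.486, beside 58.7% lower, 39.4% at most 0.5-fold and a median of 0.613 over all 104 miRNAs and 18 of 23 lower at a mean of at least 3000, although 4 of the 8 other scalings turned miR-135a and 2 turned miR-9, miR-99a and miR-23a. A turn here means a ratio on the other side of 1, whether or not it was beyond counting error. Of the turns named here and for the families, those of let-7e and miR-30d and 1 of the 2 of miR-99a were within counting error. The 7 miRNAs shared by MG and neurons had a median of 0.532, with 6 lower and 1 higher under the authors' scaling, beside the same 58.7% lower and 27.9% higher over all 104, and their share was 18.5% in wild type and 17.1% in LD MG. Of the total without miR-720, a denominator added after the data were seen, the shared list held 19.03% in wild type and 27.11% in LD MG and the mGliomiRs 67.4% and 45.5%. The study took both lists from its earlier profiling of MG and keeps abundant miRNAs in them, so their counts are not independent evidence of a direction. In the shared list, miR-29a was the higher one, and 4 scalings turned let-7b and let-7g, 2 turned let-7d, miR-30c and miR-29a, 1 turned miR-181a and none turned let-7c. Among the 78 miRNAs without a name, 40 were lower, 24 higher and 14 within counting error, with a median ratio of 0.696.

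Of 9 listed let-7 and miR-98 miRNAs, 6 could be named. They share the seed GAGGUAG and were all lower in LD MG under the authors' scaling, with let-7b and let-7g turned by 4, let-7d by 2 and let-7a and let-7e by 1 of the 8 other scalings and let-7c by none. Of all 104 miRNAs 58.7% were lower, and of the 23 with a mean of at least 3000, 18 were, and all 6 names came from the chart of miRNAs that declined. The 6 were not equally lower. Their summed counts were 85077 in wild type and 46987 in LD MG, a ratio of 0.552, and their median ratio was 0.474. The single ratios ran from 0.378 to 0.887, a spread of 2.35-fold. let-7g counted 15643 in wild type, 13871 in LD and 6952 in Dicer-cKO MG and had the highest ratio, 0.887 (0.861 to 0.913). let-7b followed with 18043, 11425 and 3875, a ratio of 0.633 (0.614 to 0.653). let-7c was lowest, with 26178, 9888 and 9984 and a ratio of 0.378 (0.366 to 0.390). In between lay let-7d at 0.499 (0.480 to 0.519), let-7a at 0.449 (0.426 to 0.473) and let-7e at 0.401 (0.371 to 0.435). The intervals of neighbours in this order did not overlap except for let-7a and let-7e and for let-7e and let-7c. Overlap of 2 intervals is not a test of a difference, and none was run. The sequences differ outside the seed. With positions counted from 1 at the 5′ end and let-7a first, let-7b differs by A17G and A19G, let-7c by A19G, let-7d by U1A and U16C, let-7e by U9G, and let-7g by G12U and U18C. Whether the tags of this panel tell apart miRNAs that differ by 1 base was not examined here.

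The miR-125 pair, which shares the seed CCCUGAG, had the lowest ratios among the seed families with at least 2 named members and was lower under all 9 scalings. miR-125a-5p counted 5639 in wild type, 1275 in LD and 661 in Dicer-cKO MG, which gives a ratio of LD to wild type of 0.226 (0.208 to 0.246), against 0.174 for miR-125b-5p. Both together held 14.7% of the wild type and 4.34% of the LD counts, and 15.2% and 6.88% of the counts without miR-720. The pair with the seed ACCCGUA differs by the single substitution U16A from miR-99a to miR-100. miR-99a counted 19815, 9626 and 2284 in wild type, LD and Dicer-cKO MG, a ratio of LD to wild type of 0.486 (0.470 to 0.502). miR-100 counted 5626, 1507 and 524, a ratio of 0.268 (0.247 to 0.289), so that the intervals of this pair did not overlap. miR-99a was turned by 2 of the 8 other scalings and miR-100 by none. Of 5 listed miR-30 miRNAs, 2 could be named, and their median ratio was 0.470, from 0.532 (0.512 to 0.552) for miR-30c (turned by 2 scalings) to 0.408 (0.380 to 0.438) for miR-30d (turned by 1).

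The miR-29 pair, whose names came from the chart of miRNAs that increased, was higher in LD MG, miR-29b under all 9 scalings and miR-29a under all but 2, Rpl19 as the only reference and no scaling. miR-29b counted 1748 in wild type, 7515 in LD and 2005 in Dicer-cKO MG, which gives a ratio of LD to wild type of 4.30 (4.05 to 4.57), and moved from rank 32 to rank 12. miR-29a counted 8716, 10969 and 4052, a ratio of 1.26 (1.22 to 1.30). Their joint share was 1.33% in wild type and 3.94% in LD MG, and of the counts without miR-720 1.38% and 6.25%. From miR-29b to miR-29a the aligned bases differ by U10C, A18G, G21U and U22A, all outside the seed AGCACCA if the 3p arm of miR-29a was counted, and miR-29b is 23 and miR-29a 22 bases long.

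**Figure D3:**
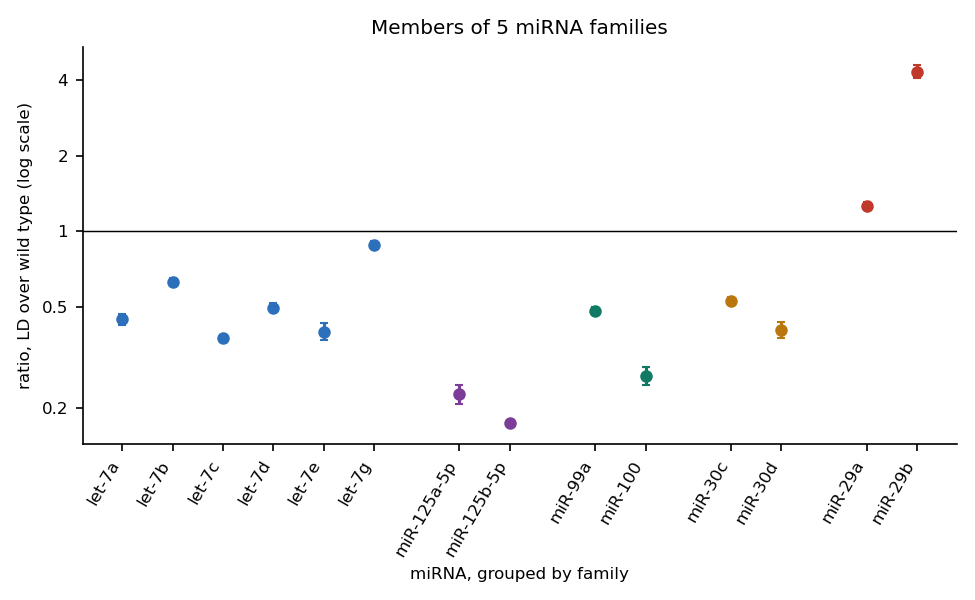
Ratio of LD to wild type (y axis, log scale) for the named members of 5 miRNA families, with bars for the 95% counting interval and a line at a ratio of 1. The let-7 points spread from 0.378 to 0.887, both miR-125 points lie at or under 0.226, and miR-29b stands at 4.30 above miR-29a at 1.26. Another scaling moves all points by the same factor and so turns the let-7 members other than let-7c, miR-99a, both miR-30 members and miR-29a in 1 to 4 of 8 cases.

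miRNAs that lie side by side in the genome can come from 1 primary transcript, and 5 pairs of named miRNAs lay within 10 kb of each other on the same strand of GRCm38.p6. miR-29a and miR-29b (Mir29b-1) span chr6:31062673-31063047 on the minus strand. Their ratios of 1.26 and 4.30 did not share an interval, though their naming had fixed which was the higher. let-7e and miR-125a-5p span chr17:17830366-17830840 on the plus strand, with ratios of 0.401 and 0.226. let-7c (Mirlet7c-2) and let-7b span chr15:85706616-85707346 on the plus strand, with 0.378 and 0.633. miR-99a and let-7c (Mirlet7c-1) span chr16:77598940-77599693 on the plus strand, with 0.486 and 0.378. let-7d and let-7a (Mirlet7a-1) span chr13:48536078-48538260 on the minus strand, with 0.499 and 0.449. Both names of every pair came from the same chart, so that a shared direction under the authors' scaling was fixed by the naming. The intervals did not overlap within any of the 5 pairs. Intervals of abundant miRNAs are narrow, and how often they overlap in other pairs was not counted. let-7a, let-7c and miR-29b also have other copies in the genome, and a mature count cannot be assigned to a copy.

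Some abundant miRNAs had ratios near 1 under the authors' scaling. miR-135a counted 12833 in wild type, 11626 in LD and 4865 in Dicer-cKO MG, which gives a ratio of 0.906 (0.877 to 0.935), and miR-22 counted 4916, 4438 and 1236, a ratio of 0.903 (0.857 to 0.951). Each of them was turned by 4 of the 8 other scalings, over which miR-22 ranged from 0.512 to 2.32. MIMAT0000128 counted 2158 in wild type and 2154 in LD MG, a ratio of 0.998 (0.925 to 1.08), and ranged from 0.566 to 2.56 over the scalings. miR-16, a family known for restraining the cell cycle, was in contrast among the lower ones, with 7260 in wild type, 2732 in LD and 3358 in Dicer-cKO MG, which gives a ratio of 0.376 (0.354 to 0.399). The ratio of miR-16 ranged from 0.214 to 0.967 over the scalings. At 0.967, with the total without miR-720, it was within counting error.

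Beside miR-720 and miR-29b, 2 named miRNAs were at least 2-fold higher in LD MG. The probe for miR-1937a+b counted 1094 in wild type, 6129 in LD and 1298 in Dicer-cKO MG, which gives a ratio of LD to wild type of 5.60 (5.21 to 6.04). miR-124, the miRNA typical of neurons, counted 1354, 5506 and 12106, a ratio of 4.07 (3.80 to 4.36). miR-124 was the only one of 12 neuron miRNAs listed as markers that could be named, and the part of RNA from neurons in the other values was not tested. Before scaling, miR-124 counted 1172.4 in wild type, 2705.5 in LD and 2738.6 in Dicer-cKO MG. miR-124 made up 0.173% of the wild type, 1.18% of the LD and 6.19% of the Dicer-cKO counts. Of the counts without miR-720, it made up 0.178% in wild type and 1.86% in LD MG. No listed miRNA of photoreceptors, immune cells, red blood cells, vessels, muscle or retinal pigment epithelium, of injury and gliosis, of hypoxia, of miR-17-92 or of the Dlk1-Dio3 locus could be named. The list for the retinal pigment epithelium did not count miR-204, which also acts in that tissue. miR-1944 counted 5024 in wild type, 2622 in LD and 3535 in Dicer-cKO MG, which gives a ratio of 0.522 that 2 scalings turned, and is listed as tRNA-like with miR-720 and miR-1937a+b. The 3 together held 3.83% of the wild type and 38.8% of the LD counts.

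The 10 highest ratios were mostly those of miRNAs scarce in wild type MG, and 8 of the 10 had no name. MIMAT0000740 counted 9 in wild type, 744 in LD and 962 in Dicer-cKO MG, which gives a ratio of LD to wild type of 82.7 (44.3 to 231). Among the 104 miRNAs it moved from rank 103 to rank 41. MIMAT0003496 was at the lowest value of the wild type sample, 1, in wild type MG, at 257 in LD and at 16 in Dicer-cKO MG. Against a floor of 3 counts before scaling, which is 3.46 normalized counts, it was 74.3-fold higher in LD MG. This value leaves out counting error. The counting interval of MIMAT0003496, from 39.1 to 8839, was formed with 1 wild type count in place of the floor of 3. Its lower end is therefore not a lower limit of the 74.3-fold value. MIMAT0005857 counted 41, 821 and 175 in wild type, LD and Dicer-cKO MG, a log2 ratio of LD to wild type of 4.32, with an interval of the ratio from 14.4 to 29.6. All 3 were low in wild type and among the middle of the 104 miRNAs in LD MG, at ranks 41, 66 and 39.

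Below them, MIMAT0011287 counted 18 in wild type, 217 in LD and 78 in Dicer-cKO MG, which gives a ratio of 12.1 (7.22 to 23.0). MIMAT0000155 counted 40, 367 and 308, a ratio of LD to wild type of 9.17 (6.44 to 13.9). MIMAT0005846 counted 52, 384 and 122, with a ratio of 7.38 (5.29 to 10.4). Their intervals are wide because the wild type counts are small. MIMAT0003169 counted 47, 288 and 206, with a ratio of 6.13 (4.38 to 9.12), and MIMAT0005460 counted 174, 862 and 153, with a ratio of 4.95 (4.13 to 6.04). miR-720 and miR-1937a+b complete the 10. Of the 8 without a name, all but MIMAT0005460 had under 100 counts in wild type. Those met the cutoff through LD MG alone, so that their direction was fixed. Under the authors' scaling, the Dicer-cKO counts of these 8 lay on both sides of their LD counts. MIMAT0000740 was higher in Dicer-cKO than in LD MG and the other 7 were lower. Before scaling, MIMAT0000740 was lower too, with 217.6 counts in Dicer-cKO and 365.5 in LD MG. Counting error was not taken into account in this comparison.

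The 10 lowest ratios ran from 0.101 to 0.206, and 8 of these miRNAs had no name. MIMAT0004669 counted 533 in wild type, 54 in LD and 73 in Dicer-cKO MG, which gives a ratio of LD to wild type of 0.101 (0.0642 to 0.148). MIMAT0000546 counted 496, 60 and 82, a ratio of 0.121, and MIMAT0000132 counted 675, 97 and 180, a ratio of 0.144. MIMAT0009390 was the most abundant of the 8 without a name in wild type MG. It counted 1493 against 221 in LD and 100 in Dicer-cKO MG, which gives a ratio of LD to wild type of 0.148 (0.120 to 0.179). In the remaining ones, too, wild type was the highest of the 3 samples, though its place over LD MG was fixed by the choice of the lowest ratios. MIMAT0009433 counted 1304, 217 and 175 (ratio 0.166), MIMAT0009441 counted 509, 89 and 4, the lowest value of the Dicer-cKO sample (ratio 0.175), MIMAT0009438 counted 908, 176 and 153 (ratio 0.194), and MIMAT0009434 counted 253, 52 and 69 (ratio 0.206). miR-125b-5p and miR-204 complete the 10. MIMAT0004669, MIMAT0000546, MIMAT0000132, MIMAT0009441 and MIMAT0009434 had under 100 counts in LD MG and met the cutoff through wild type alone. The LD and Dicer-cKO values are set against the same wild type sample, so a high wild type count lowers both ratios.

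**Figure D4:**
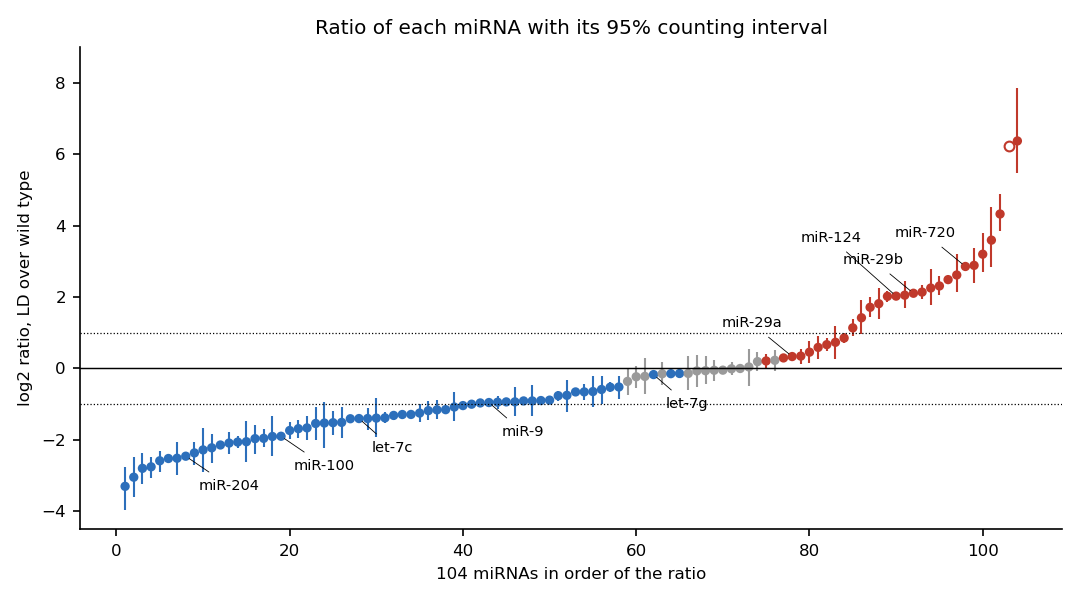
Log2 ratio of LD to wild type (y axis) for the 104 miRNAs in order of the ratio (x axis), with 95% counting intervals, a solid line at no difference and dotted lines at 2-fold and 0.5-fold. Blue, grey and red mark lower, within and higher than counting error. The open circle is MIMAT0003496, at 74.3-fold against the floor set for its wild type count. The counting interval of MIMAT0003496 is not drawn. The highest point is MIMAT0000740 at 82.7-fold.

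The cutoff fell among miRNAs of mixed direction. Just inside it lay MIMAT0009426, with 156 counts in wild type and 54 in LD MG, and MIMAT0003151, with 104 and 107. Just outside lay MIMAT0004893, with 45 and 146, and MIMAT0005291, with 81 and 109.

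How many miRNAs were called lower depended on what the samples were scaled to. The 4 reference mRNAs behind the authors' scaling did not move alike, with ratios of LD to wild type of 1.18 for Actb, 1.71 for Rpl19, 1.04 for B2m and 0.475 for Gapdh after scaling. Ratios were therefore formed under 9 scalings, and the other 8 shifted every ratio by between -0.82 and 1.36 on the log2 scale. Under all 9, 20 miRNAs were higher and 20 lower beyond counting error, and the other 64 were within counting error or on the other side of 1 under at least 1 scaling. Of the 20 higher ones 10 had under 100 counts in wild type, and of the 20 lower ones 6 had under 100 in LD MG, so that the cutoff had set the direction of these under the authors' scaling. The named miRNAs that were higher under all 9 were miR-720, miR-1937a+b, miR-29b and miR-124, and those lower under all 9 were miR-204, miR-125b-5p, miR-125a-5p and miR-100. At least 2-fold higher under all 9 were 16 miRNAs, of which 8 had under 100 counts in wild type, and at most 0.5-fold under all 9 were 9, among them miR-204 (0.103 to 0.467) and miR-125b-5p (0.099 to 0.447). Of these 9, 4 had under 100 counts in LD MG. For the let-7 family, miR-9, miR-181a, miR-99a, miR-30c, miR-30d, miR-135a and miR-29a, by contrast, the direction against wild type did not hold beyond counting error under every scaling, while their order among themselves does not depend on it.

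**Figure D5:**
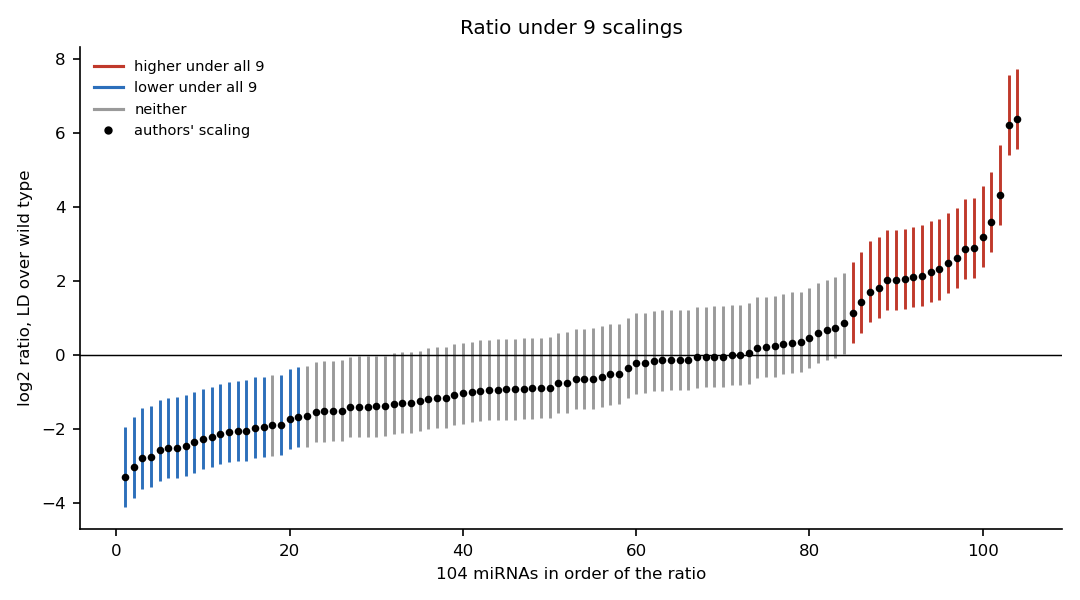
Log2 ratio of LD to wild type (y axis) for the 104 miRNAs in order of the ratio (x axis). Dots show the authors' scaling and lines the range over 9 scalings, in red for the 20 miRNAs higher and in blue for the 20 lower under all 9 beyond counting error, and in grey for the other 64.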

How the data were processed

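Mature miRNAs of sorted, pooled MG (200 ng of RNA a sample) were tagged and counted without amplification (NanoString nCounter). The deposited signal holds counts from which the authors had subtracted a background from 8 negative controls and which they had scaled to 4 reference mRNAs in nSolver 4.0, where 6 positive controls also entered the normalization. The labels give 3 and the methods 4 consecutive days of tamoxifen.

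The scaling factors were recovered from rows with 2 decimals. Dividing by them gave, for 103 of 103 wild type and 104 of 104 LD members above their sample's lowest value, whole counts plus a fixed fraction, within 0.51 normalized counts. Ratios carry exact 95% Clopper-Pearson intervals from these counts, checked on simulated data. With 1 pool per condition no test was made.

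Names were attached by the order of bars in the paper's charts, by wild type count for 21 and by ratio for 5. Where the charts give no arm the unstarred arm was assumed. Members, lists and the rule for named miRNAs (the 10 highest per sample, the 10 largest rises and falls, list extremes and both sides of the cutoff) were chosen with earlier results of these data known. Of 22 lists, 10 held no named miRNA. Alternatives were 8 other scalings, 3 other cutoffs, a larger background and a smaller fold. Software was Python 3.11.15 with scipy 1.17.1, numpy 2.4.6, matplotlib 3.10.9 and pandas 2.3.3.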

Additional observations from a re-analysis of the deposited data

How the results depend on the processing

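Against 20 miRNAs at least 2-fold higher, 41 at most 0.5-fold, 29 higher and 61 lower beyond counting error and a median ratio of 0.613, the same summed miRNA count gave 19 at most 0.5-fold, 48 higher and a median of 1.03, and the median of ratios gave 19, 48 and 1.03. The same total without miR-720 gave 45 at least 2-fold higher, 9 at most 0.5-fold, 67 higher, 20 lower and a median of 1.58, and Gapdh as the only reference gave 38, 13, 58, 32 and 1.29. Scaling to the median of ratios sets the median close to 1 by construction. The median was 0.358 with Rpl19 as the only reference and 0.348 without scaling. A mean of at least 50, which 143 miRNAs met, gave 64 at most 0.5-fold. A mean of at least 300 (66 miRNAs) gave 11 at least 2-fold higher and 17 higher, and at least 100 counts in both samples (83 miRNAs) gave 10 and 18.

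Some named miRNAs had a ratio on the other side of 1, within counting error for let-7e and miR-30d and, with Gapdh only, for miR-99a and miR-335-5p. With the same summed count, the ratio of LD to wild type was 1.52 for miR-135a, 1.51 for miR-22, 1.48 for let-7g and 1.06 for let-7b, and with the median of ratios 1.53, 1.52, 1.5 and 1.07. With Gapdh only, it was 1.91 for miR-135a, 1.90 for miR-22, 1.87 for let-7g, 1.33 for let-7b, 1.14 for miR-23a, 1.12 for miR-30c, 1.10 for miR-1944, 1.08 for miR-9 and for miR-335-5p, 1.05 for let-7d and 1.02 for miR-99a. With the total without miR-720, it was 2.33 for miR-135a, 2.32 for miR-22, 2.28 for let-7g, 1.63 for let-7b, 1.39 for miR-23a, 1.37 for miR-30c, 1.34 for miR-1944, 1.32 for miR-9, 1.31 for miR-335-5p, 1.28 for let-7d, 1.25 for miR-99a, 1.15 for let-7a, 1.05 for miR-181a and miR-30d, and 1.03 for let-7e. miR-29a was at 0.736 with Rpl19 only and at 0.714 without scaling. Of the list medians, with the total without miR-720 that of the mGliomiRs was 1.25, of the shared miRNAs 1.37, of let-7 1.22 and of miR-30 1.21, and with Gapdh only the first pair were 1.02 and 1.12. Each scaling multiplies every ratio by 1 number, so its construction accounts for these turns. Subtracting a further 10 counts or calling at a smaller fold moved no count or median by more than the limit of 1.5 times. Counting depth limits the miRNAs with few wild type counts, whose intervals span several fold.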

Other observations

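Members with later miRBase identifiers, from MIMAT0009000 on, were singled out after their values were seen. There were 14, of which 2 had a name (miR-1937a+b and miR-1944). Their median ratio of LD to wild type was 0.294, with 8 at most 0.5-fold and 4 at least 2-fold higher, beside a median of 0.636 over the 90 members with earlier identifiers, of which 33 were at most 0.5-fold and 16 at least 2-fold higher. Over the 21 miRNAs with a sequence the rank correlation of GC content with the ratio was -0.557 (Pearson -0.538 on log2 ratios). It is a description across miRNAs that share families, libraries and scaling.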
